A study of Mus musculus with 32 samples.

Results

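The liver X receptor (LXR) targets and sterol efflux genes are 10 genes: the receptors Nr1h3 and Nr1h2, the enzyme Ch25h, the exporters Abca1 and Abcg1, the ubiquitin ligase Mylip, the lipid carriers Apoe and Pltp, the small GTPase Arl4c and the acyltransferase Lpcat3. They were taken by symbol from the 56748 genes of a table of RNA-seq read counts, and all 10 were among the 16984 genes that held enough reads to be tested. The cells were primary white adipocytes from the subcutaneous fat of mice, given an siRNA and then left on control treatment or loaded for 6 h with cholesterol at 400 µM, carried by methyl-β-cyclodextrin. There were 4 siRNA groups: a scramble siRNA, siRNA to Nfe2l1 (siNfe2l1), siRNA to Atf3 (siAtf3) and both siRNAs together. Each siRNA was studied in control and in cholesterol, so there were 8 groups of 4 libraries, and no group carried a deletion. The labels call the scramble cells wild type and the libraries biological replicates. Nothing further ties a library to an animal or a culture, so p-values measure the spread between these libraries. Whether the control treatment held the cyclodextrin carrier is not given in the labels.

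LXRα (Nr1h3) and LXRβ (Nr1h2) are nuclear receptors that bind oxysterols and, paired with a retinoid X receptor, switch on genes that lower free sterol in the cell. Their targets move cholesterol out of the cell (Abca1 to lipid-poor apolipoproteins, Abcg1 to high-density lipoprotein), limit sterol uptake (Mylip), carry and remodel lipid outside the cell (Apoe, Pltp) and set how unsaturated membrane phospholipids are (Lpcat3). Adipocytes hold a large pool of free cholesterol in their membranes and around the lipid droplet, and Nfe2l1 is a membrane-bound transcription factor of the endoplasmic reticulum that senses cholesterol.

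The sequences before the start sites of Ch25h, Abca1 and Arl4c are shown because only these genes, of the 9 with a window, hold a match to a motif searched. LXR pairs bind a direct repeat of the half-site AGGTCA with a gap of 4 bases, here searched with up to 3 mismatches in the 12 fixed bases. The factor family of Atf3 binds the cyclic AMP response element TGACGTCA and the AP-1 site TGANTCA, and that of Nfe2l1 the antioxidant core TGACNNNGC. All motifs were searched on both strands of RefSeq windows of 300 bases, from 250 before to 50 after the start. Each line gives the 250 bases before the start, 5′ to 3′ in the gene's direction, on build GRCm38.p6, and capitals mark the match. The windows lie at chr19:34475149-34475398 for Ch25h, chr4:53159896-53160145 for Abca1 and chr1:88702192-88702441 for Arl4c, all on the minus strand.
Ch25h: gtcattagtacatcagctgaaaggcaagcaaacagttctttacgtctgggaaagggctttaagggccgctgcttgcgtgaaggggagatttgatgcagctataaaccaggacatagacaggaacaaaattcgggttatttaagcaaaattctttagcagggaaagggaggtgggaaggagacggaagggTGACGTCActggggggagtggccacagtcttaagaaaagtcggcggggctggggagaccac
Abca1: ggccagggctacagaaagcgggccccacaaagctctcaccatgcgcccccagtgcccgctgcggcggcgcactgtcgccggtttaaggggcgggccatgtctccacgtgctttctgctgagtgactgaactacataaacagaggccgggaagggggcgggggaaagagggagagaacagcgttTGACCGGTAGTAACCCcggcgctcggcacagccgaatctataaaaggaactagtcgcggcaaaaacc
Arl4c: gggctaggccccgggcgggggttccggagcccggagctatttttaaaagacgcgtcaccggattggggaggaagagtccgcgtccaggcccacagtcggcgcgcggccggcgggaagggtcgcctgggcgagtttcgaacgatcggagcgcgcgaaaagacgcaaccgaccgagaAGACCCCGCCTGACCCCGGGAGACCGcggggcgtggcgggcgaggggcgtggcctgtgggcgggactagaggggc
Capitals mark a cyclic AMP response element in Ch25h, 61 to 54 bases before the start. In Abca1 they mark 1 repeat with 3 mismatches, 67 to 52 bases before it. In Arl4c they mark 2 overlapping repeats with 3 mismatches each, from 75 to 60 and from 65 to 50 bases before it. Of 32851 mouse promoter windows of this length, 21.9% held a repeat at this tolerance, 7.81% an AP-1 site, 1.79% a cyclic AMP response element and 12.4% an antioxidant core. A match of this kind is a description of the letters. The table held windows for 9 of the 10 genes, all but Abcg1, and the other 6 genes with a window had no match to any of the motifs.

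The libraries held 23457384 to 33828418 counted reads. Levels are CPM, read counts scaled to the library size, with library sizes adjusted by the trimmed mean of M-values (TMM), and a gene is called changed where edgeR's quasi-likelihood test gave an adjusted p under 0.05 over all genes tested. Nfe2l1 was left at 15.2% of its scramble level by siNfe2l1 in control and 14.7% in cholesterol, and at 23.4% and 19.3% with both siRNAs. Atf3 was left at 37.8% in control and 10.3% in cholesterol by siAtf3, and at 57.3% and 12.8% with both. In scramble control, the adipocyte markers Adipoq and Plin1 stood at 907 to 937 and 1640 to 1683 CPM, beside summed levels of 226 to 265 CPM for 13 macrophage markers and 24370 to 25626 CPM for 10 fibroblast and precursor markers. In bulk RNA, fewer cells of a type and less RNA per cell cannot be told apart.

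Cholesterol raised most of these genes, whichever siRNA the cells had been given. In scramble cells 9 of the 10 rose and none fell, where 32.9% of all genes tested rose and 32.3% fell (65.2% called in all). The log2 fold changes ran from 2.80 ± 0.25 (SE) for Arl4c and 1.98 ± 0.10 for Ch25h through 1.04 ± 0.12 for Abca1 and 0.91 ± 0.11 for Mylip to 0.13 ± 0.05 for Nr1h2. Lpcat3 was not called, at 0.06 ± 0.04 with a 95% interval from -0.03 to 0.16. The libraries of the 2 treatments did not overlap for the 9 genes called, as for 57.4% of all genes. With siNfe2l1, 8 genes rose (60.1% of all genes called, 31.1% higher and 29% lower). With siAtf3, 9 rose (58.1% called, 29.4% higher and 28.6% lower), and with both siRNAs, 8 rose (58.7% called, 29.8% higher and 28.9% lower). No member fell in any of these 3 comparisons, and the libraries of control and cholesterol did not overlap for the genes called, as for 50.1%, 54.8% and 56.4% of all genes. The median log2 fold change over the 10 genes was 0.97 in scramble, 1.06 with siNfe2l1, 0.82 with siAtf3 and 0.89 with both, against medians over all genes of 0.00 to 0.01.

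The same treatment moved markers of other cells. In scramble cells 11 of 13 macrophage markers, 8 of 9 fibroblast and precursor markers tested and 7 of 8 endothelial markers fell, and 9 of 10 adipocyte markers rose. Summed macrophage markers went from 226 to 265 CPM in control to 139 to 169 CPM in cholesterol, and the fibroblast sum from 24370 to 25626 CPM to 7545 to 8549 CPM. All 13 macrophage markers were detected, and of the fibroblast and precursor markers Dpp4 was listed at 0 in at least 1 cholesterol library. Their part in the changes of the LXR genes was not tested.

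**Figure D1:**
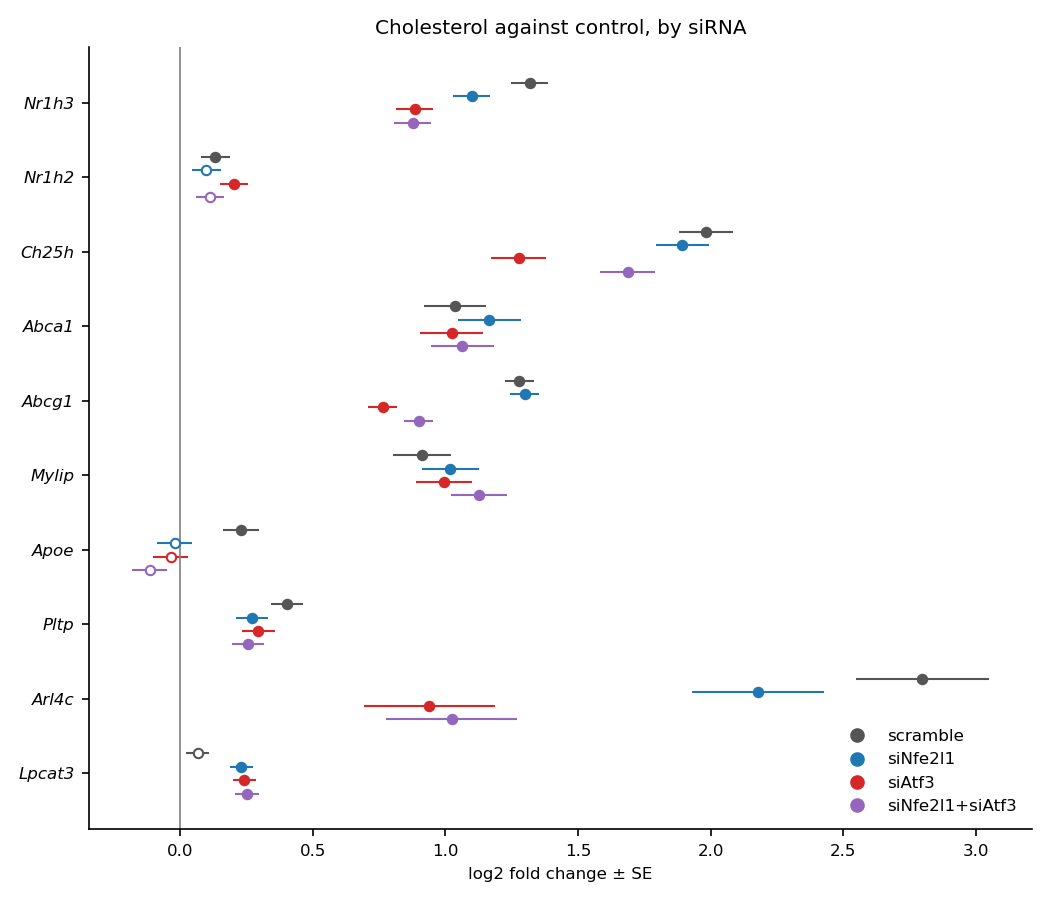
Log2 fold change of cholesterol over control (x axis) for each of the 10 genes, by siRNA group, with the standard error as bars; open points were not called by edgeR's quasi-likelihood test at an adjusted p of 0.05. The responses of Arl4c, Ch25h, Abcg1 and Nr1h3 were smaller with siAtf3 than with the scramble siRNA, whereas those of Abca1 and Mylip lay close together.

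The siRNA to Atf3 moved the genes in opposite directions. In control cells 2 of the 10 were higher than with the scramble siRNA and 6 lower, where 36.3% of all genes were called (18.1% higher, 18.2% lower). Abcg1 rose by 1.11 ± 0.05 and Mylip by 0.63 ± 0.11, whereas Pltp fell by 0.65 ± 0.06. In cholesterol the same comparison called all 10 genes, with 2 higher and 8 lower, where 50.4% of all genes were called (23% higher, 27.4% lower). Abcg1 and Mylip were the higher ones, at 0.59 ± 0.05 and 0.71 ± 0.10, and Arl4c and Ch25h had the largest falls, at -1.68 ± 0.23 and -0.96 ± 0.10. With both siRNAs, 2 genes were higher and 4 lower than scramble in control (27.2% of all genes called, 12.9% higher and 14.3% lower), and 2 higher and 6 lower in cholesterol (44.7% called, 20.8% higher and 23.9% lower). The siAtf3 and the double comparisons share their scramble libraries, so their likeness is not independent. The same change of Atf3 siRNA can be read without these libraries, as both siRNAs against siNfe2l1 alone. There, 1 gene was higher and 6 lower in control (26.8% called, 12.3% higher and 14.5% lower), and 2 were higher and 8 lower in cholesterol (36.6% called, 15.7% higher and 20.9% lower), with Abcg1 again higher in both treatments. In cholesterol that count of 10 was 8 to 10 with any 1 library left out: Abca1 was lost without siNfe2l1 library 2 or 3 or library 1 with both siRNAs, Nr1h2 without library 1 or 2 of siNfe2l1 or 2 or 4 of both siRNAs, and Mylip without siNfe2l1 library 1.

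These directions depend on the scaling for the smaller changes. On library totals without TMM, the median over all genes moved to 0.15 for siAtf3 against scramble in control and 0.17 in cholesterol, and the split of all genes called went from 3071 higher and 3093 lower to 5913 and 1871 in control and from 3898 and 4659 to 6707 and 2712 in cholesterol. Of the 10 genes, 2 were then called higher and 5 lower in control, and 2 higher and 5 lower in cholesterol, Abcg1 and Mylip being higher in both. With both siRNAs against scramble, the split went from 2199 and 2426 to 4373 and 1473 in control and from 3537 and 4056 to 6049 and 2299 in cholesterol, with 2 members higher and 2 lower, and 3 higher and 4 lower. The third higher one in cholesterol was Lpcat3 (0.16, adjusted p = 0.0037). For cholesterol in scramble the median over all genes moved to -0.12 and the split from 5584 and 5487 to 4332 and 6804, and 7 members rose. For both siRNAs against siNfe2l1 the split went from 2092 and 2462 to 4158 and 1523 in control, where 1 member was higher and 2 lower, and from 2672 and 3547 to 4523 and 2312 in cholesterol, where 2 were higher and 5 lower.

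Fibroblast and precursor markers moved with siAtf3 as well, with sums of 17041 to 17752 CPM in control against 24370 to 25626 CPM in scramble. In cholesterol their sums were 4078 to 4477 CPM against 7545 to 8549 CPM. Adipocyte markers summed to 10878 to 11909 CPM with siAtf3 in control, a range that overlapped the 11271 to 11841 CPM of scramble. By gene, 5 of these 10 markers were lower and 1 higher with siAtf3 in control, and 6 lower and 1 higher in cholesterol. Of 8 endothelial markers 4 were lower in control and 6 in cholesterol, and of 6 smooth muscle and pericyte markers 4 were lower in each treatment, with 1 higher in cholesterol. What part these cells had in the changes with siAtf3 was not tested.

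The siRNA to Nfe2l1 alone changed fewer of the 10 genes than siAtf3 did, in comparisons that also called fewer of all genes. In control Apoe and Pltp were called higher (2 of 10, where 5.99% of all genes were called, 3.13% higher and 2.87% lower), and in cholesterol Pltp, Lpcat3 and Abcg1 (3 of 10, where 19.9% were called, 11.3% higher and 8.59% lower). None was called lower. On library totals the split of all genes called in cholesterol went from 1923 higher and 1459 lower to 2615 and 992, with 3 of the 10 again higher. The cholesterol response itself was not called different from that in scramble for any of the 10 genes, in a comparison that called 0.247% of all genes (0.206% larger and 0.0412% smaller; 42 genes, and 2 to 1337 with any 1 library left out). By unadjusted p under 0.05, 3 of the 10 differed, and DESeq2's Wald test and limma-voom also called none. The count over all genes moved with several libraries. It was 2 without scramble control library 4, 188 without scramble cholesterol library 4 and 1337 without siNfe2l1 cholesterol library 1. In the last of these fits 2 members were called. Their difference in response was -0.31 for Nr1h3 (adjusted p = 0.0295) and -1.02 for Arl4c (adjusted p = 0.0233).

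Differences in cholesterol response were tested on the log2 scale. With siAtf3, 4 genes were called, all with a smaller response, where 15.3% of all genes were called (6.21% larger, 9.13% smaller). These were Arl4c (-1.86 ± 0.35, adjusted p = 0.00101), Ch25h (-0.71 ± 0.15, adjusted p = 0.00134), Abcg1 (-0.52 ± 0.08, adjusted p = 1.79e-05) and Nr1h3 (-0.43 ± 0.10, adjusted p = 0.00308). On library totals the split of all genes called went from 1054 larger and 1551 smaller to 1321 and 1228, and these 4 genes were called smaller with Lpcat3 called larger (0.22). For Abca1 the difference was -0.01, with a 95% interval from -0.35 to 0.33, and for Mylip 0.08, with an interval from -0.23 to 0.39. Without scramble cholesterol library 1 they were -0.16 and -0.02. With both siRNAs, 4 genes had a smaller response and 1 a larger one (13.7% of all genes called, 6.52% larger and 7.21% smaller): Arl4c (-1.78 ± 0.35), Nr1h3 (-0.44 ± 0.10), Abcg1 (-0.38 ± 0.08) and Apoe (-0.34 ± 0.09) were smaller, and Lpcat3 (0.19 ± 0.06) larger. There the split went from 1107 and 1224 to 1474 and 982 on library totals, with 1 member larger and 4 smaller. Without the 8 libraries numbered 1 the count with both siRNAs was 3, all smaller.

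**Figure D2:**
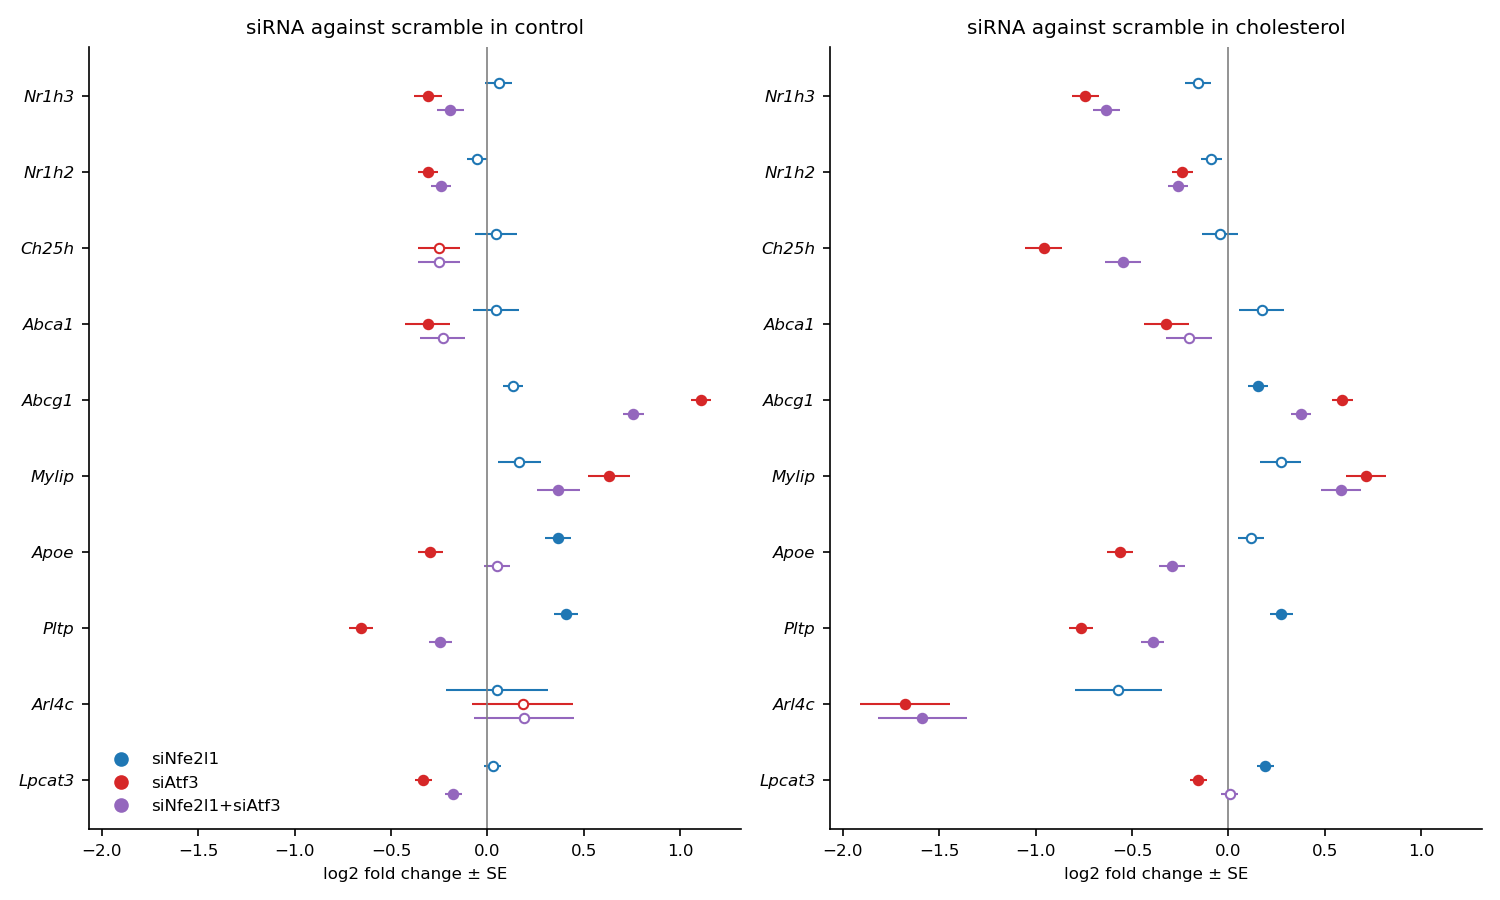
Log2 fold change of each siRNA group over scramble (x axis) for the 10 genes, in control and in cholesterol, with the standard error as bars; open points were not called. Abcg1 and Mylip lay to the right of 0 with siAtf3 in both treatments, and Pltp, Apoe and Nr1h3 to the left.

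Gene positions are those of the deposited table, on GRCm39. Nr1h3 (chr2:91014406-91033179, minus strand) encodes LXRα, which adipocytes and macrophages express and which can switch on its own gene. It stood at 53.8, 50.7, 52.4 and 54.9 CPM in the 4 scramble control libraries and at 149.5, 125.7, 130.9 and 121.9 CPM in scramble cholesterol. With siAtf3 it was 42.8, 41.1, 45.6 and 41.5 CPM in control and 85.3, 76.96, 79.7 and 73.7 CPM in cholesterol. Every siAtf3 library lay below every scramble library of its treatment, and every cholesterol library above every control library. Of all genes, 41.3% lay apart between siAtf3 and scramble in control and 40.9% in cholesterol, in either direction. Cholesterol and control lay apart for 57.4% in scramble and 54.8% with siAtf3. Cholesterol raised Nr1h3 by 1.32 ± 0.07 on the log2 scale in scramble and by 0.88 ± 0.07 with siAtf3. Against scramble, siAtf3 lowered it by 0.31 ± 0.07 in control (adjusted p = 0.00067) and by 0.74 ± 0.07 in cholesterol (adjusted p = 3.55e-11).

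With siNfe2l1, Nr1h3 was 52.5 to 62.0 CPM in control, and in cholesterol it stood at 136, 125, 110 and 102 CPM. Those libraries overlapped the scramble ones of each treatment, and the difference in cholesterol was not called (-0.16, adjusted p = 0.0951). With both siRNAs, Nr1h3 was 43.7 to 49.0 CPM in control and 80.7 to 88.1 CPM in cholesterol. It was lower than with siNfe2l1 alone in both treatments, by 0.25 ± 0.07 (adjusted p = 0.00729) and 0.47 ± 0.07 (adjusted p = 9.33e-07). On library totals the call in control was lost (-0.16, adjusted p = 0.0556). Against scramble in control, both siRNAs lowered it by 0.19 ± 0.07 (adjusted p = 0.0407), a call that was lost without any 1 of scramble control libraries 1, 3 and 4 or of libraries 2, 3 and 4 with both siRNAs (adjusted p = 0.051 to 0.109), and on library totals (-0.09, adjusted p = 0.28). The groups fell into 4 levels whose libraries did not overlap: scramble and siNfe2l1 in cholesterol, then the Atf3 siRNA groups in cholesterol, then scramble and siNfe2l1 in control, then the Atf3 siRNA groups in control. Both siRNAs and scramble lay apart for 33.7% of all genes in control and 37.8% in cholesterol. The share of all genes with 4 such levels was not counted.

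Nr1h2 (chr7:44199040-44203375, minus strand) encodes LXRβ, the widely expressed receptor, and it varied least. Its means ran from 74.4 ± 2.65 CPM (SD, n = 4) with siAtf3 in control to 101.0 ± 4.83 CPM in scramble cholesterol, a ratio of 1.36, and each group overlapped the next in order. In scramble, cholesterol moved it from 89.4 to 94.3 CPM up to 96.9 to 107.2 CPM, a log2 fold change of 0.13 ± 0.05 (adjusted p = 0.0288). The call was lost without scramble control library 1 (0.12) or 4 (0.11), without scramble cholesterol library 1 (0.10) or 3 (0.12), with no filter on low counts (0.10), when only the groups compared were fitted (0.12), and on library totals without TMM scaling (0.0087, adjusted p = 0.889). With siAtf3, Nr1h2 was lower by 0.31 ± 0.05 in control (adjusted p = 1.47e-05) and by 0.24 ± 0.05 in cholesterol (adjusted p = 0.000296). The second of these was lost on library totals (-0.05, adjusted p = 0.404).

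Ch25h (chr19:34451178-34452564, minus strand) encodes cholesterol 25-hydroxylase, which makes the oxysterol 25-hydroxycholesterol, a ligand of the LXRs. Its scramble control libraries held 11.4, 13.9, 13.7 and 13.5 CPM, and its scramble cholesterol libraries 60.8, 45.2, 51.8 and 49.9 CPM. With siAtf3 in cholesterol it stood at 27.5, 26.3, 27.0 and 26.0 CPM, and with both siRNAs at 37.4, 33.1, 41.0 and 30.4 CPM. All cholesterol libraries lay above all control libraries, and the 3 levels in cholesterol (scramble and siNfe2l1, both siRNAs, siAtf3) did not overlap. The upper 2 levels barely parted, at 41.02 CPM for the lowest siNfe2l1 library against 40.97 CPM for the highest with both siRNAs. Both siRNAs and siNfe2l1 lay apart in cholesterol for 30% of all genes, and siAtf3 and scramble for 40.9%.

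In control, Ch25h with siAtf3 was 10.2 to 12.7 CPM, a difference from scramble of -0.25 that was not called (adjusted p = 0.072). It was called without scramble control library 1 (-0.32, adjusted p = 0.0305) or siAtf3 control library 3 (-0.33, adjusted p = 0.0239), by DESeq2's Wald test (-0.27, adjusted p = 0.0478), when only the groups compared were fitted (-0.26, adjusted p = 0.00985) and without the 8 libraries numbered 1 (-0.29, adjusted p = 0.0386). In cholesterol it was lower by 0.96 ± 0.10 with siAtf3 (adjusted p = 4.18e-10) and by 0.55 ± 0.09 with both siRNAs (adjusted p = 1.35e-05). With siNfe2l1 alone in cholesterol it held 59.5, 53.5, 47.4 and 41.0 CPM, and the difference from scramble was -0.04 (95% interval -0.23 to 0.15). The response to cholesterol was smaller than in scramble with siAtf3, and with both siRNAs the difference was -0.30 (adjusted p = 0.173). Against siNfe2l1 alone, both siRNAs lowered Ch25h by 0.30 ± 0.11 in control, a call lost without siNfe2l1 control library 3 or 4 or library 2 or 3 with both siRNAs, and by 0.50 ± 0.09 in cholesterol (adjusted p = 5.91e-05). The first of these was also lost on library totals (-0.20, adjusted p = 0.117) and by limma-voom (adjusted p = 0.0911). The opposite-strand gene Gm26902 overlaps Ch25h and held 2.07% as many counts.

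Abca1 (chr4:53030787-53159895, minus strand) encodes the transporter that loads cholesterol and phospholipid onto lipid-poor apolipoprotein A-I. It held 445, 457, 457 and 427 CPM in scramble control and 625, 1032, 1070.4 and 933 CPM in scramble cholesterol. With siAtf3 it held 368, 381, 315 and 377 CPM in control and 636, 764, 787 and 742 CPM in cholesterol. The cholesterol libraries of every siRNA lay above all control libraries, and library 1 of scramble cholesterol was far below the other 3. In cholesterol the scramble libraries overlapped those of each other siRNA, whereas the siNfe2l1 libraries (895 to 1128 CPM) lay above both Atf3 siRNA groups (636 to 787 CPM with siAtf3, 758 to 822 CPM with both). Both siRNAs and siNfe2l1 lay apart in cholesterol for 30% of all genes. Cholesterol raised Abca1 by 1.04 ± 0.12 in scramble, 1.16 ± 0.12 with siNfe2l1, 1.02 ± 0.12 with siAtf3 and 1.06 ± 0.12 with both.

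Against scramble, siAtf3 lowered Abca1 by 0.31 ± 0.12 in control (adjusted p = 0.0404) and by 0.32 ± 0.12 in cholesterol (adjusted p = 0.0237). In control every siAtf3 library (315 to 381 CPM) lay below every scramble one (427 to 457 CPM), as 41.3% of all genes lay apart. With any 1 library left out the value was -0.35 to -0.26 in control and -0.47 to -0.22 in cholesterol. Both calls lay near the threshold and depended on the scaling. The first was lost without scramble control library 1, 2 or 3 or siAtf3 control library 1, 3 or 4 (-0.34 to -0.26, adjusted p = 0.0517 to 0.129), and on library totals (-0.17, adjusted p = 0.278). The second was lost without scramble cholesterol library 2, 3 or 4 or siAtf3 cholesterol library 1 or 4 (adjusted p = 0.0578 to 0.154), and on library totals (-0.14, adjusted p = 0.363). Both were also lost with no filter on low counts (adjusted p = 0.0721 and 0.0693). With both siRNAs in cholesterol, Abca1 differed from scramble by -0.20 (adjusted p = 0.162), and by -0.35 (adjusted p = 0.00286) without scramble cholesterol library 1.

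Abcg1 (chr17:31276649-31336962, plus strand) encodes the transporter that passes cholesterol to mature high-density lipoprotein and within cells. Its scramble control libraries held 113, 122, 128 and 129 CPM, and its siAtf3 control libraries 266, 271, 250.4 and 274 CPM. In cholesterol, scramble held 269, 312, 315 and 299 CPM, and siAtf3 422, 461, 470 and 446 CPM. The siAtf3 control libraries thus overlapped scramble cholesterol only at its library 1, and siAtf3 in cholesterol was above every other group. Library 1 was the lowest for Abcg1 in 4 of 4 cholesterol groups. Between siAtf3 and scramble, 41.3% of all genes lay apart in control and 40.9% in cholesterol. siAtf3 raised Abcg1 by 1.11 ± 0.05 in control (adjusted p = 2.35e-18) and by 0.59 ± 0.05 in cholesterol (adjusted p = 1.7e-11). The other exporter, Abca1, was called lower in both. Those calls were lost in 8 of 16 alternative fits in control and 8 of 17 in cholesterol.

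The double siRNA groups lay between scramble and siAtf3 for Abcg1, at 203 to 213 CPM in control and 370.1 to 401 CPM in cholesterol. Both siRNAs raised it over siNfe2l1 alone by 0.62 ± 0.05 in control (adjusted p = 2.45e-11) and by 0.22 ± 0.05 in cholesterol (adjusted p = 0.000943). With siNfe2l1 alone it was 125 to 149.9 CPM in control, where the difference was not called (0.13, adjusted p = 0.154), and 319 to 347 CPM in cholesterol, where it was (0.15, adjusted p = 0.0379). That call was lost without scramble cholesterol library 1 or 4 or siNfe2l1 cholesterol library 2, 3 or 4 (0.11 to 0.15, adjusted p = 0.0778 to 0.179), and when only the groups compared were fitted (adjusted p = 0.247). The log2 rise with cholesterol was 1.28 ± 0.05 in scramble, 1.30 ± 0.05 with siNfe2l1, 0.76 ± 0.05 with siAtf3 and 0.90 ± 0.05 with both. These smaller log2 rises started from higher control levels. Mean CPM went from 123 to 299 in scramble, from 265 to 450 with siAtf3 and from 208 to 388 with both. Whether the rise in CPM differed was not tested.

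**Figure D3:**
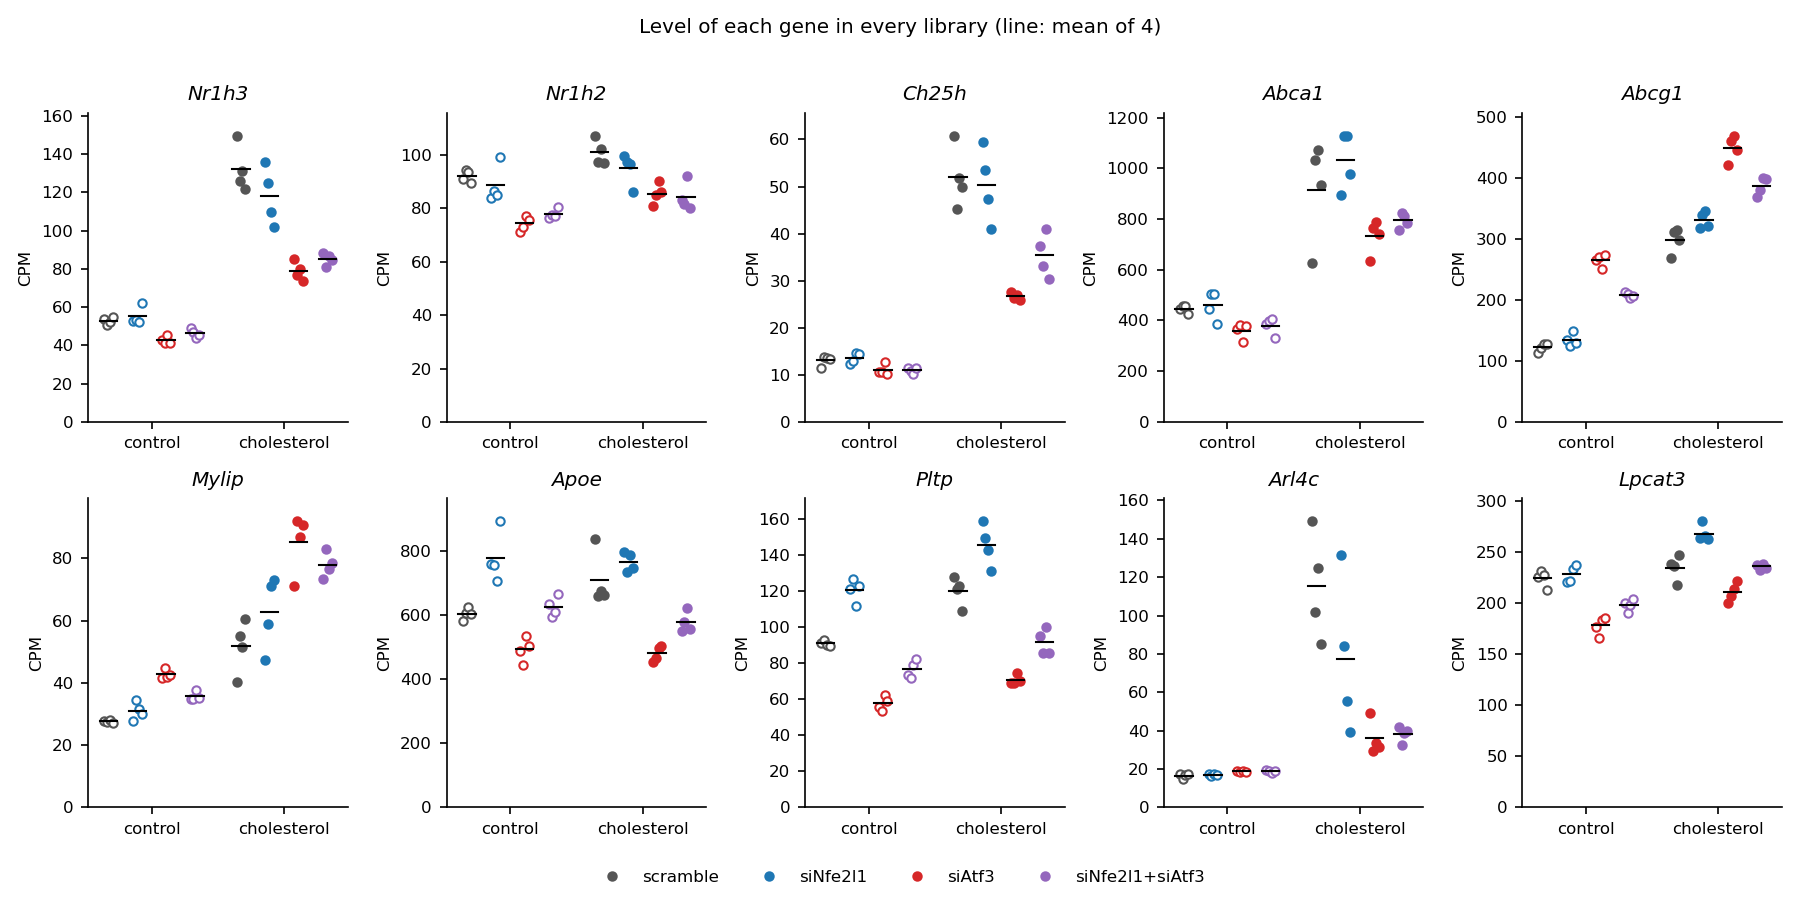
Level of each of the 10 genes in every library (y axis, CPM on TMM-scaled library sizes) for the 8 groups, with a line at the group mean. Abcg1 and Mylip were highest with siAtf3 in cholesterol, whereas Nr1h3, Ch25h and Arl4c were highest in scramble cholesterol.

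Mylip, also called Idol (chr13:45543218-45565498, plus strand), is a ubiquitin ligase that lowers sterol uptake. It held 27.8, 27.5, 27.9 and 27.2 CPM in scramble control and 41.7, 44.8, 41.8 and 42.7 CPM with siAtf3. In cholesterol it held 40.4, 55.1, 51.5 and 60.5 CPM in scramble and 71.1, 91.8, 86.9 and 90.6 CPM with siAtf3. As for Abcg1, siAtf3 cells in control overlapped scramble cells in cholesterol, through the low scramble library 1. siAtf3 raised Mylip by 0.63 ± 0.11 in control (adjusted p = 3.15e-05) and by 0.71 ± 0.10 in cholesterol (adjusted p = 1.46e-06). The rise with cholesterol was 0.91 ± 0.11 in scramble, 1.02 ± 0.11 with siNfe2l1, 0.99 ± 0.10 with siAtf3 and 1.13 ± 0.11 with both siRNAs. Both siRNAs raised it over scramble by 0.37 ± 0.11 in control (adjusted p = 0.0121) and 0.58 ± 0.10 in cholesterol (adjusted p = 3.83e-05). Over siNfe2l1 alone in cholesterol the rise was 0.31 ± 0.10 (adjusted p = 0.0176), and 0.22 (adjusted p = 0.0702) without siNfe2l1 cholesterol library 1 (adjusted p = 0.0771 when only the groups compared were fitted).

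Apoe (chr7:19430034-19433113, minus strand) encodes apolipoprotein E, the secreted carrier that takes up effluxed lipid and that macrophages make in large amounts. Scramble control libraries held 581 to 625 CPM, and scramble cholesterol libraries 837, 657, 674 and 661 CPM. Library 1 thus stood apart in cholesterol. The rise in scramble was 0.23 ± 0.07 (adjusted p = 0.0033), and 0.14 (adjusted p = 0.0441) without that library. It was lost without all 8 libraries numbered 1 (0.12, adjusted p = 0.129) and on library totals (0.10, adjusted p = 0.151). With siNfe2l1, siAtf3 and both siRNAs the changes with cholesterol were -0.02, -0.04 and -0.12, none of them called. The change with both siRNAs was called on library totals (-0.19, adjusted p = 0.0106) and when only the groups compared were fitted (-0.13, adjusted p = 0.0104). The test of the difference in response was called with both siRNAs (-0.34 ± 0.09, adjusted p = 0.014; -0.21, adjusted p = 0.174, without the libraries numbered 1) and not with siAtf3 (-0.27, adjusted p = 0.0528) or siNfe2l1 (-0.25, adjusted p = 0.2).

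Pltp (chr2:164681438-164699631, minus strand) encodes the phospholipid transfer protein, which moves phospholipid between lipoproteins. It held 89.1 to 92.7 CPM in scramble control and 109 to 128 CPM in scramble cholesterol. With siAtf3 it held 53.6 to 62.5 CPM in control and 68.7 to 74.6 CPM in cholesterol. Scramble and siAtf3 libraries did not overlap within either treatment (41.3% of all genes in control and 40.9% in cholesterol), and siAtf3 cells in cholesterol stayed below scramble cells in control. Cholesterol raised Pltp in all 4 siRNA groups, by 0.40 ± 0.06 in scramble and by 0.25 to 0.29 in the others. siAtf3 lowered Pltp by 0.65 ± 0.06 in control (adjusted p = 6.25e-11) and by 0.76 ± 0.06 in cholesterol (adjusted p = 8.65e-13), and lowered Apoe by 0.30 ± 0.07 (adjusted p = 0.000578) and 0.56 ± 0.07 (adjusted p = 1.24e-08).

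siNfe2l1 moved both carriers the other way in control. Pltp held 121, 126, 112 and 122 CPM and Apoe 760, 754, 707 and 891 CPM, each above all scramble control libraries, as 13.8% of all genes lay apart in this comparison. In cholesterol Pltp remained higher with siNfe2l1 (0.27 ± 0.06, adjusted p = 0.0011; adjusted p = 0.0596 when only the groups compared were fitted), and Apoe differed by 0.12 (adjusted p = 0.238). Both siRNAs lowered the carriers against siNfe2l1 alone, Pltp by 0.65 ± 0.06 in control and 0.67 ± 0.06 in cholesterol, and Apoe by 0.31 ± 0.07 and 0.41 ± 0.07. With siNfe2l1, 11 of 13 macrophage markers rose in control and 12 in cholesterol, and none fell. Their summed level was 303 to 453 CPM against 226 to 265 CPM of scramble in control, and 253 to 296 CPM against 139 to 169 CPM in cholesterol. C1qa, a complement subunit of macrophages, rose by 1.00 in control and 1.09 in cholesterol, and the scavenger receptor Cd68 by 0.61 and 0.63. With siAtf3 the carriers were lower in both treatments. These markers then summed to 307 to 401 CPM in control, above scramble, with 4 of 13 called higher and 1 lower. In cholesterol they summed to 147 to 184 CPM, a range that overlapped scramble, with 1 called higher and 4 lower. The part of macrophages in the carriers' levels was not tested.

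The gene Ctsa lies on the opposite strand over Pltp and held 306% as many counts. Whether counting used the strand is not stated, so reads of the 2 genes cannot be told apart where they overlap. Ctsa rose by 0.27 with siNfe2l1 in control (adjusted p = 0.000181) and by 0.11 with cholesterol in scramble (adjusted p = 0.0349). With siAtf3 it was not called, at 0.03 in control (adjusted p = 0.625) and -0.05 in cholesterol (adjusted p = 0.432), where Pltp fell.

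Arl4c (chr1:88600847-88629943, minus strand) encodes an ARF-like small GTPase of vesicle and cytoskeleton traffic, and it had the lowest level per kilobase of the 10 genes in scramble control. It held 17.3, 14.8, 16.7 and 17.4 CPM in scramble control and 149, 102, 125 and 85.4 CPM in scramble cholesterol. With siAtf3 in cholesterol it held 49.3, 29.4, 33.8 and 31.7 CPM, and with both siRNAs 42.1, 32.6, 38.8 and 39.9 CPM. These libraries lay below all scramble cholesterol libraries and above all control libraries. Against scramble in cholesterol, 40.9% of all genes lay apart with siAtf3 and 37.8% with both siRNAs. With cholesterol it rose by 2.80 ± 0.25 in scramble, 2.18 ± 0.25 with siNfe2l1, 0.94 ± 0.25 with siAtf3 and 1.02 ± 0.25 with both.

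In control, Arl4c held 14.8 to 17.4 CPM in scramble and 16.5 to 17.6 CPM with siNfe2l1. It held 18.4 to 19.2 CPM with siAtf3 and 17.9 to 19.3 CPM with both siRNAs, above all scramble libraries. In these comparisons 41.3% and 33.7% of all genes lay apart, in either direction. Neither siAtf3 (0.18, adjusted p = 0.634) nor both siRNAs (0.19, adjusted p = 0.653) were called different from scramble. Each difference was called in 1 of 16 alternative fits. In cholesterol Arl4c fell by 1.68 ± 0.23 with siAtf3 (adjusted p = 1.51e-06) and fell by 1.59 ± 0.23 with both siRNAs (adjusted p = 4.68e-06). The siNfe2l1 cholesterol libraries spread most, at 132, 83.9, 55.4 and 39.4 CPM, and their difference from scramble was not called (-0.57, adjusted p = 0.0756). It was called without siNfe2l1 cholesterol library 1 (-0.96, adjusted p = 0.000447) and without scramble cholesterol library 4 (-0.70, adjusted p = 0.0346), by DESeq2's Wald test (-0.58, adjusted p = 0.0472), by limma-voom (-0.69, adjusted p = 0.0115) and without the 8 libraries numbered 1 (-0.81, adjusted p = 0.00461). Both siRNAs lowered Arl4c against siNfe2l1 alone in cholesterol by 1.02 ± 0.23 (adjusted p = 0.0012), and by 0.62 (adjusted p = 0.0138) without siNfe2l1 cholesterol library 1. That call was lost when only the groups compared were fitted (adjusted p = 0.0918).

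Lpcat3 (chr6:124639990-124681381, plus strand) encodes the enzyme that puts polyunsaturated chains into membrane phospholipids. It held 212 to 231 CPM in scramble control and 217 to 246 CPM in scramble cholesterol, ranges that overlapped. With siNfe2l1 it went from 220.4 to 237 CPM up to 263 to 279.8 CPM, with siAtf3 from 166 to 185 CPM up to 200.1 to 221 CPM, and with both siRNAs from 190.4 to 203 CPM up to 232 to 238 CPM. These 3 rises were 0.23 ± 0.04 (adjusted p = 2.48e-05), 0.24 ± 0.04 (adjusted p = 1.45e-05) and 0.25 ± 0.04 (adjusted p = 7.13e-06). The difference from the scramble response was called with both siRNAs (0.19 ± 0.06, adjusted p = 0.0416) and not with siAtf3 (0.18, adjusted p = 0.0502) or siNfe2l1 (0.17, adjusted p = 0.195). The difference with siAtf3 was called in 11 of the 16 fits that left out 1 library. The call with both was lost without scramble control library 2 or 3, scramble cholesterol library 3 or library 2 with both siRNAs in control, and with no filter on low counts (adjusted p = 0.122).

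Against scramble, siAtf3 lowered Lpcat3 by 0.33 ± 0.04 in control (adjusted p = 1.41e-07). In cholesterol the fall was 0.16 ± 0.04 (adjusted p = 0.00322), lost without scramble cholesterol library 4 (-0.11, adjusted p = 0.0502), when only the groups compared were fitted (adjusted p = 0.0622), and on library totals, where the value was 0.03. siNfe2l1 raised it in cholesterol by 0.19 ± 0.04 (adjusted p = 0.00189; 0.114 when only the groups compared were fitted). Emg1, on the opposite strand over the end of Lpcat3, held 20.3% as many counts and was lower with siAtf3 by 0.14 in control and 0.20 in cholesterol.

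Per kilobase of gene model, the order of the genes in scramble control ran from Apoe at 282 CPM per kb through Lpcat3 (68.6), Abca1 (43.1), Pltp (35.4), Nr1h2 (27.5), Nr1h3 (21.1), Abcg1 (16.9), Ch25h (9.45) and Mylip (8.54) to Arl4c (3.01). In scramble cholesterol Abca1 stood at 88.3 CPM per kb, above Lpcat3 at 71.7. Nr1h3 stood at 52.5 and so passed Nr1h2 at 30.1, the order of the 2 receptors being reversed from control. Across the 8 groups the ratio of the highest to the lowest group mean was 6.97 for Arl4c, 4.72 for Ch25h, 3.65 for Abcg1, 3.09 for Nr1h3, 3.08 for Mylip, 2.86 for Abca1 and 2.52 for Pltp, and at most 1.62 for Apoe, Lpcat3 and Nr1h2.

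Within the cholesterol groups the libraries numbered 1 stood apart, in opposite directions for different genes. Library 1 was the lowest of its group in 4 of 4 groups for Abca1, Abcg1 and Mylip, and the highest in 4 of 4 for Nr1h3 and Arl4c and in 3 of 4 for Ch25h. Its mean log2 deviation from the group mean was -0.25 for Abca1, -0.27 for Mylip, 0.14 for Nr1h3 and 0.48 for Arl4c. Atf3 itself, at 0.51, was highest in library 1 in 4 of 4 groups. The labels do not say what a library number marks, and what set these libraries apart was not tested. Without all 8 libraries numbered 1, cholesterol raised 7 genes in scramble and 8, 9 and 8 with siNfe2l1, siAtf3 and both, and siAtf3 in cholesterol changed 2 genes upward and 8 downward. In that fit, of all genes, 30.8% rose with cholesterol in scramble and 28.8%, 27.7% and 28.2% with siNfe2l1, siAtf3 and both, and siAtf3 in cholesterol left 21.8% higher and 25.9% lower.

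**Figure D4:**
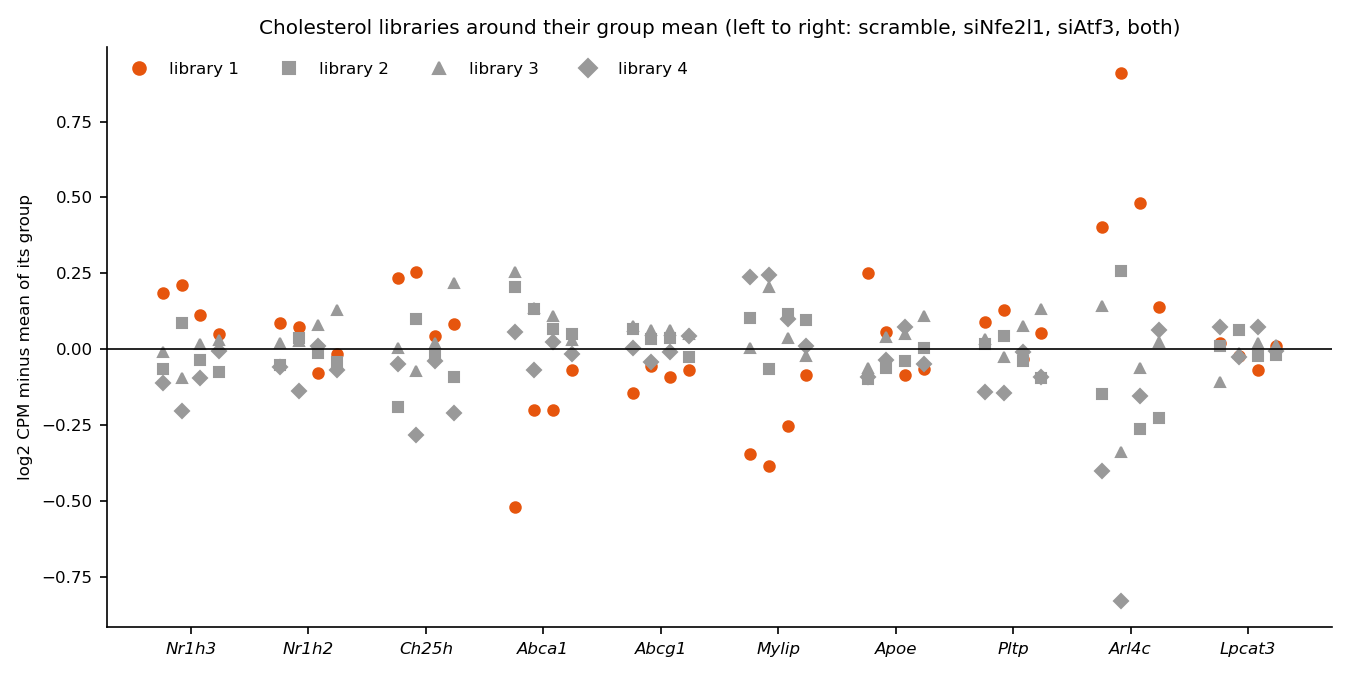
Log2 CPM of each cholesterol library minus the mean of its group (y axis) for the 10 genes, with library 1 of each group in orange. Library 1 lay lowest in 4 of 4 groups for Abca1, Abcg1 and Mylip, and highest in 4 of 4 for Nr1h3 and Arl4c.

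Among the siNfe2l1 cholesterol libraries, Atf3 held 481, 290.0, 166 and 134 CPM. Arl4c and Nr1h3 followed the same order over these 4 libraries, and Mylip the reverse one. In scramble cholesterol Atf3 held 561, 309.8, 439 and 281 CPM, and Arl4c and Nr1h3 again followed its order. With siAtf3 in cholesterol Atf3 held 52.7, 37.5, 37.1 and 36.3 CPM, and library 1 was highest in Arl4c and Nr1h3 too, but libraries 2 to 4 did not keep the order. With both siRNAs Atf3 held 54.2, 47.0, 51.6 and 50.5 CPM, an order that Nr1h3 followed and Arl4c did not. A principal component analysis put 80.2% of the variance on its first axis. Along it, the cholesterol libraries lay at 40.48, 34.25, 27.73 and 24.04 with siNfe2l1, and at 43.59, 39.36, 42.34 and 37.1 in scramble. Both siRNAs gave 33.71, 28.56, 32.39 and 30.28. These groups kept the order of Atf3, and siAtf3 (35.24, 29.45, 31.96 and 29.54) did not. The share of all genes in such an order was not counted, and a link particular to Atf3 was not tested.

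The gene whose level was most like that of Nr1h3, after removing the mean of each treatment, was Atf3 (Pearson r = 0.979 over the 32 libraries, the highest among 10793 genes searched). The libraries fall into 8 groups and share the treatment and siRNA steps, so r describes these libraries, holds the differences between siRNA groups, and carries no p. With the mean of each group removed, r between Nr1h3 and Atf3 was 0.951 over the 16 cholesterol libraries and 0.345 over the 16 control libraries. Such closeness in cholesterol was not particular to Nr1h3: r with Atf3 was 0.975 for Arl4c and -0.945 for Mylip. For the other members it ran from -0.493 (Abca1) to 0.791 (Ch25h). In control, r was -0.178 for Arl4c and -0.335 for Mylip. For Arl4c the most alike genes were Nr1d1 (0.982), Smad1 (0.981) and Tcim (0.974), for Ch25h Shc2 (0.941) and for Nr1h2 Ppp2r3d (0.935). For Abca1 it was Bptf (0.95), for Abcg1 Paqr9 (0.933) and for Mylip Zfp217 (0.945). For Apoe it was Gsn (0.961), for Pltp B4galt1 (0.966) and for Lpcat3 Itga7 (0.926).

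**Figure D5:**
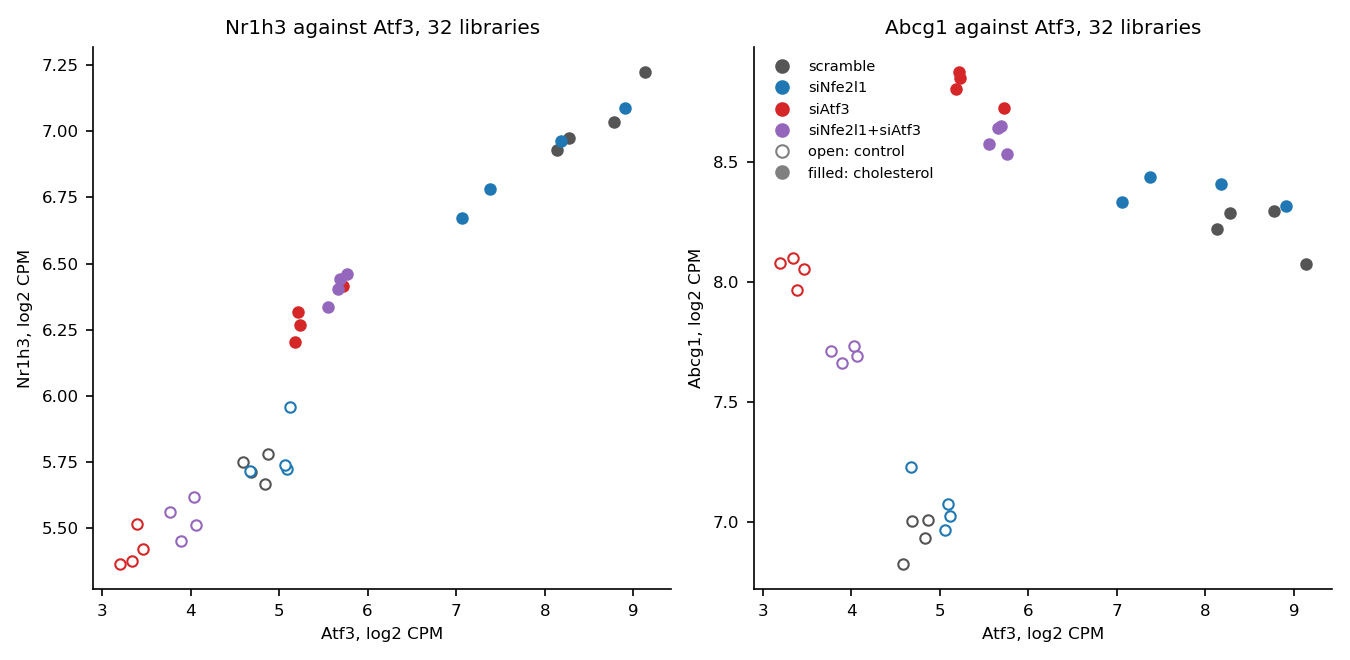
Log2 CPM of Nr1h3 and of Abcg1 (y axes) against that of Atf3 (x axis) in the 32 libraries, by siRNA and treatment. Across the groups of each treatment Nr1h3 was lower in the libraries given siRNA to Atf3, and the siAtf3 libraries had the highest Abcg1 of their treatment.

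Other genes of the sterol pathways were read from lists of known members. Of 13 further LXR targets tested, 6 rose and 3 fell with cholesterol in scramble, with a median of 0.03, where 32.9% of all genes rose and 32.3% fell. Rgs16, a regulator of G-protein signalling, rose by 2.16, and Slc2a4, the insulin-responsive glucose transporter, by 0.85. Fasn, the fatty acid synthase, fell by 1.51, and Cd5l, a secreted macrophage protein, by 1.59. With siAtf3 in cholesterol, 2 of the 13 were higher and 9 lower (median -0.37), where 23% of all genes were higher and 27.4% lower. These shares of all genes are the background of the lists that follow as well. The lower ones included Fasn (-0.96), lipoprotein lipase Lpl (-0.80), the desaturase Scd2 (-0.77) and Apoc1 (-0.70).

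Of 15 receptor partners and coregulators, 9 rose and 4 fell with cholesterol in scramble (median 0.26). Rxrg, a retinoid X receptor, rose by 1.28 and the deacetylase Sirt1 by 1.11, whereas Rxra fell by 0.58. Here 2 were higher and 7 lower with siAtf3 in cholesterol, including Rxrg (-0.88) and Rxra (-0.43). Of 7 enzymes that make or clear oxysterols and related ligands, 1 rose and 3 fell with cholesterol in scramble. Cyp27a1, which hydroxylates the sterol side chain, rose by 0.29. Cyp46a1, a brain sterol hydroxylase, was higher with siAtf3 in cholesterol by 2.06 and Cyp27a1 lower by 0.46.

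Of 12 targets of SREBP2, the factor that drives sterol synthesis and uptake when sterol is low, 11 fell and none rose with cholesterol in scramble (median -0.79). The sterol carrier Stard4 fell by 2.18, squalene epoxidase Sqle by 1.30 and the synthase Hmgcs1 by 1.12. With siAtf3 in cholesterol 4 of the 12 were higher and 5 lower. Hmgcs1 (0.65) and Stard4 (0.63) were among the higher ones. Of 10 other genes of sterol storage and movement, 5 rose and 2 fell with cholesterol in scramble, among them Npc1 (0.87), the lysosomal cholesterol exporter, and Soat1 (0.40), which esterifies cholesterol. Of these, 2 were higher and 6 lower with siAtf3 in cholesterol. Of 13 interferon genes, a class that induces Ch25h in other cells, 1 rose and 10 fell with cholesterol in scramble (median -0.77). Their part in the level of Ch25h was not tested. Of 6 smooth muscle and pericyte markers, 2 rose and 3 fell in the same comparison.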

How the data were processed

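RNA-seq libraries of mouse white adipocytes were made in 8 groups of 4. The authors deposited 1 table of read counts per gene. The tools were fastp, HISAT2 2.0.5 on GRCm39 and featureCounts 1.5.0-p3, as listed in the submitters' processing notes. Strand use, the handling of reads that map to several places and the annotation release are not given in the sources used here. Library totals were 23457384 to 33828418 counts, which sets the counting error of low genes such as Ch25h and Arl4c.

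Columns were matched to samples through the labels, and no per-sample column was left unmapped. Genes were kept by edgeR's filterByExpr (minimum count 10, minimum total 15), scaled by TMM (factors 0.886 to 1.10) and fitted with edgeR 4.0.16 in R 4.3.3, by robust quasi-likelihood with 8 group means over 32 libraries (24 residual degrees of freedom). P-values were adjusted by the method of Benjamini and Hochberg over 16984 genes, and a gene was called at 0.05. Standard errors are the log2 fold change divided by the square root of F. Interactions tested whether a cholesterol response differed from that in scramble. The test was tried on simulated counts. Alternatives were DESeq2 1.42.0 size factors and Wald test, library totals, no filter on low counts, limma-voom (limma 3.58.1), fits of only the groups compared, a replicate block, and leaving out libraries. Leaving out the 8 libraries numbered 1 was added after seeing the data. All 48 pairs of libraries within a group differed beyond sampling noise (chi-square over its degrees of freedom was 2.75 to 44.8), and each counted as 1 replicate.

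The members, the gene lists and the markers were chosen with earlier results of these data known. All members are named, and from each other list up to 4 called genes with the smallest adjusted p; Soat1 and markers outside that rule were named after their values were seen, and some genes of these lists are not reported here. Like genes are the 3 with the highest Pearson r among 10793 genes with a mean log2 CPM of at least 2. Promoter windows are RefSeq sequences on GRCm38.p6, a build other than that of the counts, and were used by symbol only.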

Additional observations from a re-analysis of the deposited data

Results flagged for a closer look

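In 8 of the 80 sets of 4 libraries, 1 library lay apart from the other 3 by Dixon's test, which chance does for about 1 set in 20. In control, siNfe2l1 library 4 held 62.0 CPM of Nr1h3 (others 52.5 to 53.4) and 99.2 CPM of Nr1h2 (others 84.0 to 86.5). Scramble control library 1 held 11.4 CPM of Ch25h (others 13.5 to 13.9), and siAtf3 control library 3 held 12.7 CPM (others 10.2 to 10.6). Library 3 with both siRNAs in control held 37.8 CPM of Mylip (others 34.7 to 35.2) and 17.9 CPM of Arl4c (others 19.1 to 19.3). In cholesterol, scramble library 1 held 837.1 CPM of Apoe (others 657 to 674), and siNfe2l1 library 2 held 279.8 CPM of Lpcat3 (others 263 to 265).

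On the log2 scale, the response to cholesterol differed from that in scramble in 9 of 30 tests of the difference. With siAtf3 it was smaller for Nr1h3 (-0.43), Ch25h (-0.71), Abcg1 (-0.52) and Arl4c (-1.86). With both siRNAs it was smaller for Nr1h3 (-0.44), Abcg1 (-0.38), Apoe (-0.34) and Arl4c (-1.78), and larger for Lpcat3 (0.19). These tests share the scramble libraries.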

How the results depend on the processing

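Outside the fits that left out 1 library, 1226 of the members' values kept their direction and their side of the threshold, 46 lost the call, 40 gained one and 28 turned sign. With 1 library left out, 1329 kept both, 43 lost the call, 32 gained one and 36 turned sign. No value that turned sign was called both before and after; the cause was not tested. On library totals these were Lpcat3 for cholesterol in scramble (-0.057), Ch25h for siNfe2l1 in cholesterol (0.00127), Lpcat3 for siAtf3 in cholesterol (0.029), and the response differences of Nr1h2 with siNfe2l1 (0.00773) and both siRNAs (0.031) and of Abca1 with siAtf3 (0.035). That of Abca1 with siAtf3 also turned with no filter (0.019), limma-voom (0.017) and only the groups compared (0.014). Lpcat3 for both siRNAs in cholesterol turned with DESeq2 size factors and with its Wald test (both -0.0042).

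Without scramble cholesterol library 1 and siNfe2l1 control library 4, values turned for Apoe in siNfe2l1 with cholesterol (0.051), for Nr1h3 with siNfe2l1 in control (-0.0022), for Ch25h with siNfe2l1 in cholesterol (0.040), for the siNfe2l1 response differences of Nr1h2 (0.054), Ch25h (0.026), Abca1 (-0.090), Abcg1 (-0.043) and Mylip (-0.0094), for that of Mylip with siAtf3 (-0.018), and for those of Nr1h2 (0.010) and Abca1 (-0.12) with both siRNAs. Without siNfe2l1 cholesterol libraries 3 and 4, Ch25h with siNfe2l1 was 0.12, and the siNfe2l1 response differences were 0.019 for Nr1h2, 0.077 for Ch25h and -0.13 for Mylip. Without the 8 libraries numbered 1, the double response differences were 0.013 for Nr1h2 and -0.085 for Abca1.

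The count of members called with siNfe2l1 in cholesterol was 3, and 5 with the replicate block, 5 with DESeq2's Wald test, 5 without the libraries numbered 1, 0 with only the groups compared and 2 to 6 with 1 library left out. For both siRNAs against siNfe2l1 in control it went from 7 to 3 on library totals. For response differences it went from 5 to 3 with both siRNAs without the libraries numbered 1, and from 0 to 0 to 2 with siNfe2l1 with 1 library left out. Over all genes, the count for siNfe2l1 in cholesterol was 3382, and 645 with only the groups compared, 2153 without siNfe2l1 library 3 and 1206 without libraries 3 and 4. That for the siNfe2l1 response difference was 42, and 72 with no filter, 143 with the block, 344 with DESeq2, 2 with only the groups compared, 5 without either pair of libraries and 670 without those numbered 1.

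With 1 library left out, the response difference of Abca1 ran from -0.16 to 0.098 with siAtf3, -0.015 to 0.19 with siNfe2l1 and -0.12 to 0.12 with both. That of Abcg1 with siNfe2l1 ran from -0.036 to 0.059, that of Mylip with siAtf3 from -0.018 to 0.19, and that of Nr1h2 from -0.074 to 0.00068 with siNfe2l1 and -0.053 to 0.015 with both. Cholesterol moved Apoe by -0.062 to 0.027 in siAtf3 and -0.086 to 0.020 in siNfe2l1. Ch25h with siNfe2l1 ran from -0.14 to 0.040 in cholesterol and -0.0068 to 0.096 in control, and Lpcat3 with both siRNAs in cholesterol from -0.019 to 0.042.

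The labels give the groups the same replicate numbers, but same-numbered libraries of different groups correlated in their deviations at over 0.1 in only 6 of 112 pairs (median 0.009), and 12 of 32 libraries were most like their own number, so the numbers were not taken as pairs. All 6 of those pairs lay among the 24 pairs of cholesterol groups (-0.043 to 0.265), where the 6 pairs of libraries numbered 1 correlated at 0.047 to 0.265. With the replicate block 145 of 150 member values kept direction and call, 5 gained a call, among them Arl4c for siNfe2l1 in cholesterol (-0.61, adjusted p = 0.0275), and none lost one. Depth limits the low genes most: 1 library held as few as 266 counts of Ch25h.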
